A study of Gossypium hirsutum with 6 samples.

Results

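Cytokinins are adenine-derived plant hormones that promote cell division, shoot growth and leaf greening and restrain root growth. IPT enzymes make cytokinin nucleotides, LOG enzymes release the active free base from them, and CKX enzymes break the hormone down. In signalling, AHK histidine kinases bind cytokinin in membranes and pass a phosphate through AHP proteins to the nucleus, where type-B ARR transcription factors switch on target genes. Among these targets are the type-A ARRs, which damp the response and are widely used as its readout.

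The genes described here are cotton genes whose matched Arabidopsis locus, as given in the deposited table, belongs to one of 7 families: IPT, LOG, CKX, AHK, AHP, type-B ARR and type-A ARR. Each cotton gene is called a copy and carries the name of its Arabidopsis match, so its role is that known from Arabidopsis. Of 34 loci listed, 28 had at least 1 row, which gave 171 copies among 70478 genes. LOG3, ARR3, ARR5, ARR7, ARR15 and ARR16 were not analysed here, and since 4 of these are among the best known fast-induced type-A genes (ARR5, ARR7, ARR15 and ARR16), the type-A readout is partial. Of the 171 copies, 32 were listed at 0 in all libraries, and 84 copies of 21 loci reached a mean of 0.5 FPKM over the libraries and were tested. FPKM scale the fragments of a gene to its transcript length and to all mapped fragments of the library. Just outside this limit were Gh_D10G1858 (ARR17) at 0.415 and Gh_A01G0867 (LOG5) at 0.486 FPKM, and just inside it were Gh_D01G2083 (LOG1) at 0.529 and Gh_A05G1091 (AHP4) at 0.552 FPKM. For 7 tested copies the mean of 1 group alone was under the limit, in 6 of them that of the libraries labelled AZD, and 1 of these 7 passed the test below.

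RNA came from seedlings of wild-type upland cotton (Gossypium hirsutum, CCRI24) in 6 libraries. Seedlings aged 4 d were moved for 24 h to medium with 5 μM AZD, an ATP-competitive inhibitor of the TOR kinase, or with its solvent DMSO, and both groups grew under 16 h of light and 8 h of dark at 25 °C. Each group had 3 libraries from 3 biological repeats, so the control shares the solvent but not the inhibitor. Values below are given in the order of replicates 1, 2 and 3, and each difference is that of the AZD-labelled against the DMSO-labelled libraries. The direction rests on the sample labels, and the study's own table of fold changes for jasmonate genes runs the opposite way for nearly all of its genes, so DMSO libraries and AZD libraries below mean the libraries carrying that label.

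Spearman correlations over tested genes were 0.880 to 0.904 within the DMSO libraries, 0.920 to 0.933 within the AZD libraries and 0.849 to 0.878 between them. The first principal component, with 37.9% of the variance, separated the groups, and the second, with 20.8%, set DMSO replicate 1 apart. Photosynthesis genes were higher in the AZD libraries, at a summed 10539 to 11810 FPKM against 1987 to 4002 FPKM, with 8 of 12 tested copies past the test and none lower, although PSBO1 stayed under 0.55 FPKM. The root list summed to 26.3 to 54.5 FPKM in the DMSO libraries and 22.3 to 36.1 FPKM in the AZD libraries, with 1 of 17 tested copies lower and CASP1, a gene of the root endodermis, at or near 0. In RNA of seedlings, a change in the share of a tissue and a change in RNA per cell cannot be told apart. Of 14 tested copies of dividing-cell genes, all of CYCD3;1 and KNOLLE, 1 was higher. CYCD3;1 summed to 40.6 to 51.4 FPKM in the DMSO and 53.9 to 62.0 FPKM in the AZD libraries, and the KNOLLE sums overlapped. Of 11 tested copies of phloem and xylem genes 1, of the phloem sucrose carrier SUC2, was higher, while the median log2 fold change of the list was −0.60. On that list APL summed to 4.05 to 5.26 FPKM in the DMSO and 3.50 to 3.97 FPKM in the AZD libraries. IRX3 gave 1.82 to 4.68 against 1.20 to 1.31 FPKM, and the xylem gene XCP1 11.7 to 26.8 against 6.81 to 12.2 FPKM. Of 9 tested copies of shoot meristem genes none passed. The part of these shifts in the results below was not tested.

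Among the 84 tested copies, 1 passed as higher and 3 as lower in the AZD libraries at an adjusted p under 0.05 (limma with Benjamini-Hochberg adjustment), and 80 did not pass. This is 4.76% of the copies, while 4.69% of all 43158 tested genes passed, with 1.89% higher and 2.80% lower, so the share called was close to that of the whole table. The median log2 fold change was 0.02 over the 84 copies and −0.01 over all tested genes, and 43 copies had positive and 41 negative values. In 26 copies (31.0%) the groups did not overlap, 10 above and 16 below, against 30.0% of all tested genes, 14.5% above and 15.5% below. An unadjusted p under 0.05 was reached by 25 copies, or 29.8%, against 23.4% of all tested genes. The 4 copies past the test were a LOG5, 2 AHP4 and a CKX7. All 4 calls rest on the filter on low values: with no filter their adjusted p was 0.0965 for LOG5, 0.0907 and 0.0712 for AHP4 and 0.134 for CKX7.

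**Figure D1:**
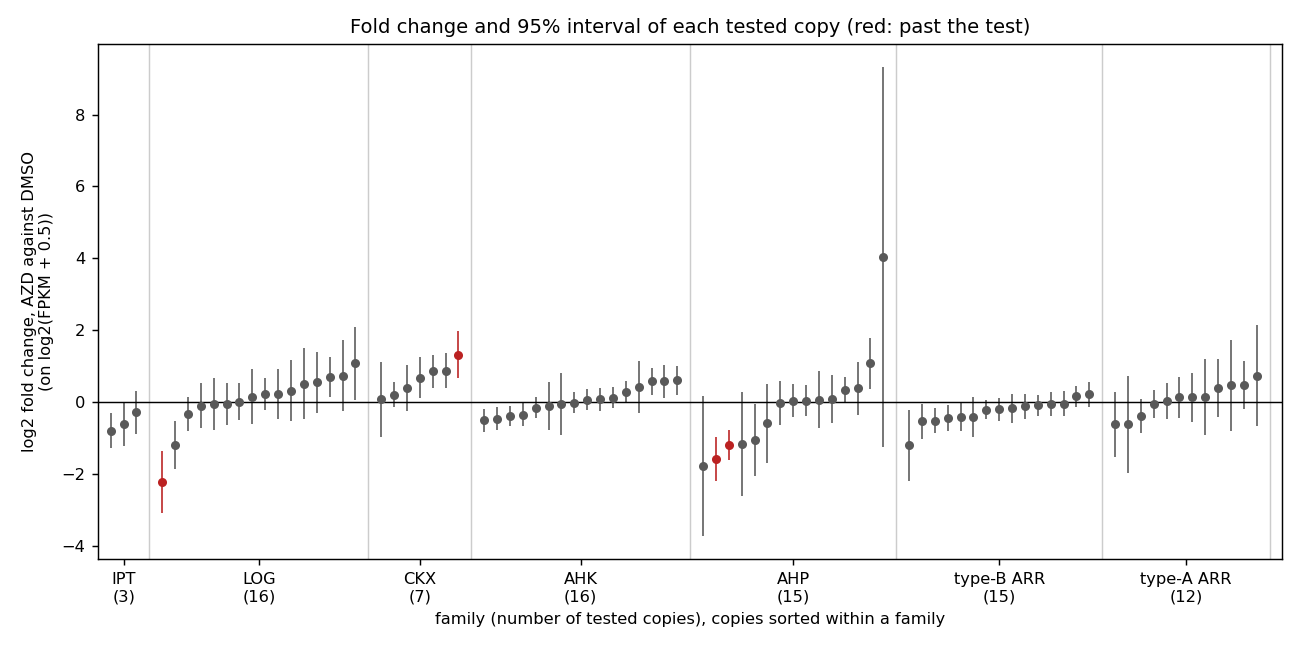
Log2 fold change of the AZD against the DMSO libraries (y axis, on log2(FPKM + 0.5)) with its 95% interval for each of the 84 tested copies, by family (x axis). The 4 copies past the test, in red, are 1 LOG and 2 AHP copies below 0 and 1 CKX copy above 0, and the widest interval belongs to an AHP5 copy at 4.04.

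Cotton is tetraploid, with an A and a D subgenome, and reads of near-identical copies can be divided between them by the mapping. FPKM were therefore also summed over all copies of a locus. Of 28 sums, 23 were tested, and CKX7 was higher while IPT3 and AHP4 were lower at an adjusted p under 0.05. Among all 13335 tested sums 8.29% passed, 3.64% higher and 4.66% lower. The groups did not overlap in 9 of the 23 sums (39.1%), against 33.6% of all sums. With no filter on low values none of the 3 sums passed, at adjusted p-values of 0.0658 for IPT3, 0.0504 for AHP4 and 0.0518 for CKX7, and the AHK2 sum was the 1 that did. The median log2 fold change of the 23 was 0.00, against −0.01 over all sums.

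**Figure D2:**
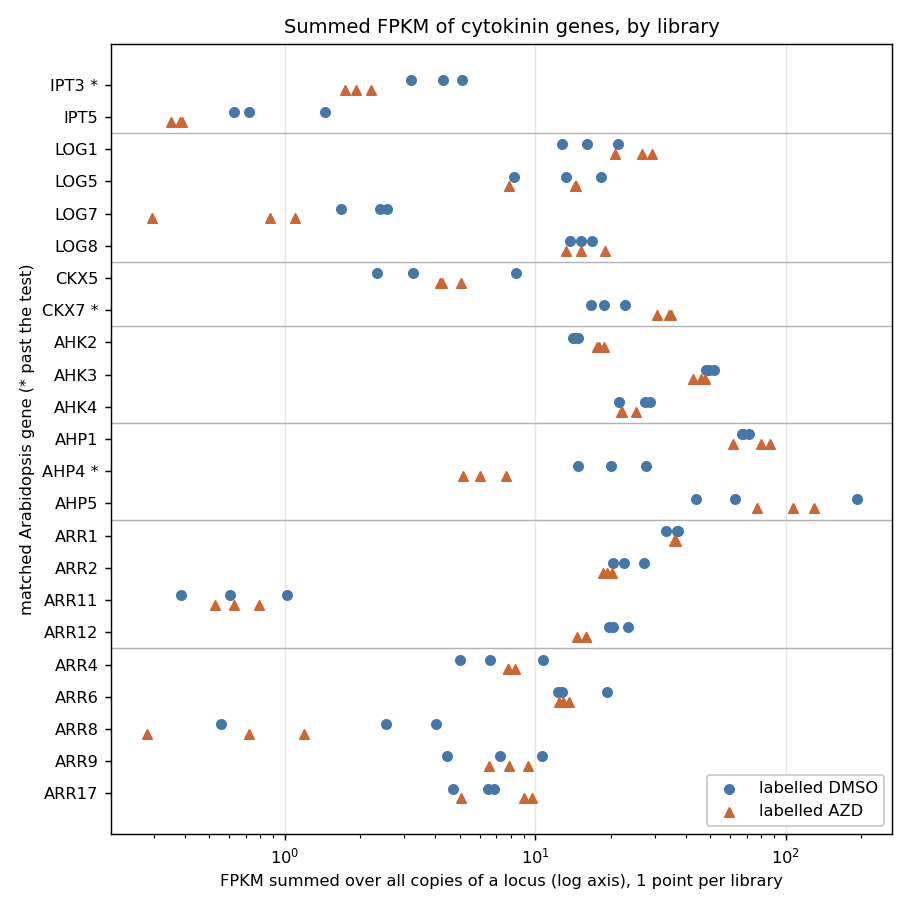
FPKM summed over all copies of a locus (x axis, log scale) in each library, for the 23 tested sums in the order of the families (y axis). CKX7 is higher and IPT3 and AHP4 are lower in the AZD libraries, and the groups do not overlap in 9 of the 23 sums.

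IPT3 (AT3G63110) and IPT5 (AT5G19040) are adenylate isopentenyltransferases, which carry out the first step of cytokinin synthesis. Of 11 copies, 3 of IPT3 were tested and none passed, all with negative fold changes. The sum over all 9 copies of IPT3, tested or not, fell. It gave 3.19, 4.29 and 5.08 FPKM in the DMSO libraries and 1.93, 1.74 and 2.21 FPKM in the AZD libraries. The groups did not overlap, and the group means were 4.19 ± 0.948 and 1.96 ± 0.233 FPKM (SD, n = 3). On the log2 scale the sum changed by −0.91 (SE 0.19, limma adjusted p = 0.0389). It remained past the test without DMSO replicate 1 only among the 6 fits that leave out a library. The adjusted p of these fits was 0.0157 to 0.145, and it was 0.101, with a log2 fold change of −0.78, without DMSO replicate 3.

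Gh_D11G1264 (IPT3) gave 1.3, 1.41 and 1.15 FPKM in the DMSO libraries and 0.514, 0.696 and 0.377 FPKM in the AZD libraries. Every DMSO value lay above every AZD value, but the copy did not pass (log2 fold change −0.81, SE 0.20, limma adjusted p = 0.0777). Gh_A11G1113 (IPT3), the IPT copy of highest mean, gave 1.24, 1.69 and 1.24 FPKM against 1.22, 0.626 and 1.38 FPKM, and here the groups overlapped (log2 fold change −0.29, SE 0.25). The remaining tested copy, Gh_A08G0631 (IPT3), had no overlap, at 0.593, 1.02 and 0.809 FPKM against 0.195, 0.422 and 0.446 FPKM. DMSO replicate 3 alone had Gh_D11G3514 (IPT3), at 1.20 FPKM, and Gh_D11G3513 (IPT3), at 0.498 FPKM, both listed at 0 elsewhere. The shoot meristem genes KNAT1 and STM also had their highest sums in that library, 66.5 and 7.85 FPKM, where the other 5 libraries gave at most 19.4 and 1.46 FPKM. CLV1, the remaining gene of that list, had its lowest sum there, 14.8 FPKM against 16.4 to 20.9 FPKM elsewhere. Their part in the IPT3 result was not tested. IPT5 had no copy over the limit, and its 2 copies summed to 1.45, 0.626 and 0.719 FPKM against 0.390, 0.352 and 0.382 FPKM, with a log2 fold change of −0.67 (SE 0.30, limma adjusted p = 0.210).

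LOG enzymes are phosphoribohydrolases that free the active cytokinin base from its nucleotide. Of 28 copies, 16 were tested, 1 was lower (6.25%, against 2.80% of all tested genes) and 10 of the 16 had positive fold changes. The copy past the test was Gh_A01G1440 (LOG5), with 2.50, 4.89 and 4.49 FPKM in the DMSO libraries and 0.446, 0.119 and 0.870 FPKM in the AZD libraries. All AZD values were far below all DMSO values. Group means were 3.96 ± 1.28 and 0.478 ± 0.377 FPKM (SD, n = 3), an 8.27-fold lower mean, and the log2 fold change was −2.22 (SE 0.36, limma adjusted p = 0.0288). The call held without DMSO replicate 1 and was lost without any other library, with an adjusted p of 0.0198 to 0.119 over these 6 fits. The other 2 tested copies of LOG5 (AT4G35190) overlapped between the groups and did not pass. Gh_A05G1549 (LOG5) gave 2.91, 6.46 and 4.58 FPKM against 8.69, 4.23 and 8.15 FPKM, and Gh_D05G1724 (LOG5) gave 2.13, 5.01 and 3.66 FPKM against 4.62, 2.70 and 4.51 FPKM. Summed over its copies, LOG5 overlapped between the groups, at 8.21, 18.4 and 13.3 against 14.5, 7.87 and 14.5 FPKM (a log2 fold change of −0.09, 95% interval −0.90 to 0.72).

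Gh_A05G1600 (LOG7) gave 2.40, 1.38 and 2.25 FPKM in the DMSO libraries and 0.295, 0.737 and 0.767 FPKM in the AZD libraries. The groups did not overlap, and the copy did not pass (log2 fold change −1.19, SE 0.28, limma adjusted p = 0.0639). It made up most of the sum of LOG7 (AT5G06300), whose adjusted p was 0.0724. LOG1 (AT2G28305) had all 8 of its copies tested, 5 of them positive. Its copy Gh_A05G0902 (LOG1), the highest LOG copy, gave 7.38, 7.63 and 5.11 FPKM against 13.7, 8.46 and 11.6 FPKM, with no overlap, a log2 fold change of 0.70 (SE 0.23) and a limma adjusted p of 0.135. Gh_D05G0984 (LOG1), the LOG copy with the largest positive change, gave 5.79, 2.64 and 1.39 FPKM against 6.58, 5.60 and 7.61 FPKM. DMSO replicate 1 overlapped the AZD values of that copy. Its log2 fold change was 1.08 (SE 0.42, limma adjusted p = 0.192), and without DMSO replicate 1 it was 1.53 with an adjusted p of 0.0287. Over the 6 fits that leave out a library the adjusted p was 0.0287 to 0.381, and it passed in that 1 alone. LOG8 (AT5G11950) showed no such spread between its 4 tested copies, whose log2 fold changes ran from −0.06 to 0.32, and its sum changed by 0.04 (95% interval −0.33 to 0.41).

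CKX enzymes irreversibly cleave the cytokinin side chain, and CKX7 (AT5G21482) is the member that lacks a secretion signal and stays in the cytosol in Arabidopsis. Of 27 copies, 7 were tested, 6 of CKX7 and 1 of CKX5 (AT1G75450), and all 7 had positive fold changes (median 0.68). Of the 7, 1 (14.3%) passed, and in 4 (57.1%) the groups did not overlap. Over all tested genes 4.69% passed and 30.0% did not overlap. CKX1 (AT2G41510), CKX3 (AT5G56970) and CKX6 (AT3G63440) had no copy over the limit, and their summed FPKM did not exceed 0.51 in any library. The CKX7 sum rose, from 16.8, 22.9 and 18.8 FPKM in the DMSO libraries to 34.7, 30.7 and 34.2 FPKM in the AZD libraries. All AZD values exceeded all DMSO values, and the means were 19.5 ± 3.14 and 33.2 ± 2.18 FPKM (SD, n = 3), a 1.70-fold higher mean. The log2 fold change was 0.76 (SE 0.14, limma adjusted p = 0.0273). The call held without DMSO replicate 1 or 2 and was lost without DMSO replicate 3 or any AZD library, with an adjusted p of 0.0220 to 0.126 over these fits.

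Gh_D08G2577 (CKX7) was the single copy of all families that was higher past the test. It gave 1.70, 0.971 and 0.765 FPKM against 3.79, 2.58 and 4.32 FPKM, without overlap. Means were 1.14 ± 0.490 and 3.56 ± 0.892 FPKM (SD, n = 3), and the log2 fold change was 1.32 (SE 0.27, limma adjusted p = 0.0486). This call was close to the threshold: it was lost without limma's trend, at an adjusted p of 0.0561, and without any library other than DMSO replicate 1, with a range of 0.0224 to 0.176. Gh_D06G0885 (CKX7), the highest CKX copy, gave 5.95, 10.1 and 7.01 FPKM against 14.9, 12.7 and 14.9 FPKM. It did not overlap either, with a log2 fold change of 0.87 (SE 0.20, limma adjusted p = 0.0669), and passed only without DMSO replicate 2, at 0.0367. Among the other 4 tested copies, Gh_D13G2023 (CKX7) and Gh_A13G1660 (CKX7) had no overlap, at log2 fold changes of 0.85 and 0.68, while Gh_A06G0738 (CKX7) and Gh_D05G0391 (CKX7) overlapped, at 0.20 and 0.38. Gh_D01G0972 (CKX5) stood apart in DMSO replicate 1, at 6.95 FPKM against 2.77 and 1.59 FPKM in the other DMSO libraries and 3.71, 3.16 and 3.34 FPKM in the AZD libraries.

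**Figure D3:**
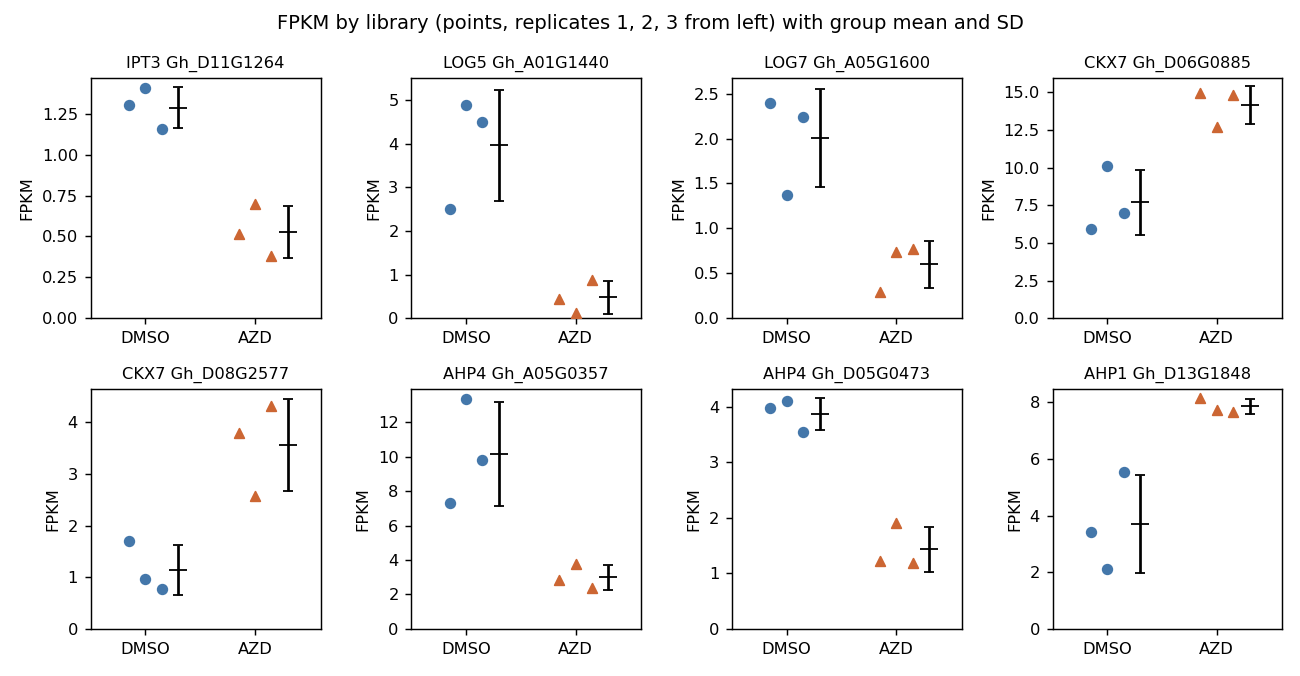
FPKM (y axis, from 0) of 8 copies in each library, with replicates 1, 2 and 3 from left to right in each group and the group mean with its SD in black. The 8 were picked with their values known, and all are copies whose 3 AZD values lie wholly above or wholly below the 3 DMSO values. Named copies that overlap are not shown, and 30.0% of all tested genes did not overlap. Only Gh_A01G1440, Gh_D08G2577, Gh_A05G0357 and Gh_D05G0473 passed the test.

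AHK2 (AT5G35750), AHK3 (AT1G27320) and AHK4 (AT2G01830) are the cytokinin receptors. Of 20 copies, 16 were tested and none passed, with 8 positive and 8 negative fold changes and sizes up to 0.60. In 8 of the 16 the groups did not overlap, 4 above and 4 below (50%, against 30.0% of all tested genes), and 7 (43.8%, against 23.4%) had an unadjusted p under 0.05. The spread within groups differed between the receptors, with a median SE on the log2 scale of 0.15 for AHK2, 0.12 for AHK3 and 0.22 for AHK4 copies, against 0.20 over all tested genes. AHK3 summed to 49.3, 51.8 and 47.9 FPKM in the DMSO libraries and 47.9, 42.8 and 46.0 FPKM in the AZD libraries. Its highest copy, Gh_D02G1508 (AHK3), gave 11.5, 11.5 and 9.27 FPKM against 11.6, 10.7 and 11.6 FPKM, a log2 fold change of 0.08 (95% interval −0.24 to 0.39).

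The 4 AHK2 copies all had positive fold changes, and in 3 of them the AZD libraries lay wholly above the DMSO libraries. Gh_A07G1520 (AHK2) overlapped, at a log2 fold change of 0.06. Gh_D11G1534 (AHK2) gave 1.70, 1.09 and 1.22 FPKM against 2.18, 2.38 and 2.21 FPKM, with no overlap and a log2 fold change of 0.60 (SE 0.17, limma adjusted p = 0.0968). Over the 6 fits that leave out a library its limma adjusted p was 0.0404 to 0.254, and it passed without DMSO replicate 1 only. The AHK2 sum gave 14.2, 14.4 and 14.8 FPKM against 17.7, 17.9 and 18.8 FPKM, close within groups and separate between them, but at an adjusted p of 0.0822 (log2 fold change 0.32, SE 0.09) it did not pass, except where no filter on low values was set. AHK4 copies went both ways. Gh_D13G0285 (AHK4) gave 7.46, 6.88 and 8.56 FPKM against 5.12, 5.70 and 4.74 FPKM (a log2 fold change of −0.52, SE 0.13, limma adjusted p = 0.0829), and Gh_A13G0267 (AHK4) gave 8.29, 7.76 and 9.99 FPKM against 6.53, 5.96 and 5.83 FPKM (a log2 fold change of −0.47). In contrast, Gh_A03G0984 (AHK4) gave 3.75, 2.60 and 3.07 FPKM against 4.78, 4.49 and 5.42 FPKM (a log2 fold change of 0.58, SE 0.16, limma adjusted p = 0.0912). None of these 3 overlapped between groups. Summed over copies, AHK4 gave 28.8, 21.6 and 27.5 FPKM against 22.0, 22.2 and 25.2 FPKM, which overlapped (log2 fold change −0.15, 95% interval −0.48 to 0.18).

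AHP proteins relay the phosphate from the receptors to the ARRs. Of 31 copies, 15 were tested, none was higher and 2 (13.3%) were lower, both of AHP4 (AT3G16360). Over all tested genes 4.69% passed, 2.80% as lower. Gh_A05G0357 (AHP4) gave 7.31, 13.4 and 9.79 FPKM in the DMSO libraries and 2.84, 3.80 and 2.36 FPKM in the AZD libraries. Gh_D05G0473 (AHP4) gave 3.97, 4.10 and 3.55 FPKM against 1.22, 1.90 and 1.18 FPKM. In both copies the lowest DMSO value was well above the highest AZD value. Gh_A05G0357 had means of 10.2 ± 3.05 and 3.0 ± 0.733 FPKM (SD, n = 3) and a log2 fold change of −1.59 (SE 0.25, limma adjusted p = 0.0279). Gh_D05G0473 had means of 3.87 ± 0.289 and 1.43 ± 0.405 FPKM (SD, n = 3) and a log2 fold change of −1.20 (SE 0.18, limma adjusted p = 0.0237), the smallest adjusted p of the 84 copies. The first call held only without DMSO replicate 1 among the fits that leave out a library (0.0155 to 0.121), and the second without DMSO replicate 1 or AZD replicate 2 (0.0331 to 0.109).

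The other 3 tested AHP4 copies also had negative fold changes but did not pass. Gh_A10G0577 (AHP4) rested on 1 library, at 0.672, 0.763 and 7.60 FPKM in the DMSO libraries and 0.674 FPKM in AZD replicate 2, while AZD replicates 1 and 3 listed it at 0 (log2 fold change −1.78, SE 0.81, limma adjusted p = 0.247). That library, DMSO replicate 3, is also the one with the high KNAT1 and STM sums and the lowest CLV1 sum. Summed over 11 copies, AHP4 gave 14.9, 20.2 and 27.8 FPKM against 5.15, 7.67 and 6.03 FPKM, without overlap. The sum fell by 1.63 on the log2 scale (SE 0.25, limma adjusted p = 0.0168), and the ratio of the means was 3.34. It held without any 1 of the DMSO libraries, at an adjusted p of 0.00703 to 0.0389, and was lost without each of the AZD libraries, at 0.0534 to 0.0846.

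AHP1 (AT3G21510) and AHP5 (AT1G03430) carried most of the AHP signal, and the single copy of AHP2 (AT3G29350) did not reach the limit. AHP1 summed to 67.0, 71.3 and 67.4 FPKM against 79.7, 61.5 and 86.4 FPKM, which overlapped (log2 fold change 0.13, 95% interval −0.22 to 0.48). Most of it came from Gh_D09G2246 (AHP1), with 52.3, 57.6 and 50.2 FPKM against 58.3, 42.7 and 65.3 FPKM. A minor copy, Gh_D13G1848 (AHP1), gave 3.41, 2.13 and 5.55 FPKM against 8.16, 7.74 and 7.66 FPKM, with no overlap but no call (log2 fold change 1.08, SE 0.29, limma adjusted p = 0.0918). Gh_A02G1296 (AHP5) had the highest mean of all 171 copies and an uneven pattern within 1 group: it gave 156 FPKM in DMSO replicate 1, was listed at 0 in DMSO replicates 2 and 3, and gave 74.4, 35.4 and 63.9 FPKM in the AZD libraries. Its log2 fold change was 4.04 with a SE of 2.19 (limma adjusted p = 0.328). Without DMSO replicate 1 the adjusted p was 0.00331, and over the 6 fits that leave out a library it reached up to 0.582. Counting it, 5 genes of all those deposited were listed at 0 in DMSO replicates 2 and 3 and over 10 FPKM in the other 4 libraries. Such a 0 can be a failed estimate or a measured value, and the FPKM do not tell which. No difference between the groups is read from this copy. With it the AHP family summed to 274, 154 and 139 FPKM against 215, 147 and 200 FPKM, and without it to 118, 154 and 139 FPKM against 140, 111 and 136 FPKM.

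Type-B ARRs are the transcription factors that carry the cytokinin signal to target genes. Of 33 copies, 15 were tested and none passed. Of these, 13 had negative fold changes (median −0.20), and in 6 the AZD libraries lay wholly below the DMSO libraries, in none above, where 15.5% of all tested genes lay below and 14.5% above. Gh_A01G0217 (ARR1), the highest, gave 12.2, 12.2 and 12.8 FPKM against 10.2, 10.3 and 11.2 FPKM, separate but only 0.22 apart on the log2 scale (SE 0.11, limma adjusted p = 0.286). Gh_D09G2278 (ARR1) had the largest positive value, 0.21, with 9.61, 6.94 and 8.48 FPKM against 9.73, 9.70 and 9.57 FPKM. Summed over its copies, ARR1 (AT3G16857) stayed at 33.4 to 37.0 FPKM in the DMSO libraries and 35.7 to 36.6 FPKM in the AZD libraries (log2 fold change 0.02, 95% interval −0.22 to 0.25).

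ARR12 (AT2G25180) had the most copies that did not overlap among the type-B genes, 4 of 6, all below. Its sum gave 19.8, 20.5 and 23.5 FPKM against 15.9, 14.7 and 15.9 FPKM. The groups were separate, and the adjusted p of 0.0554 missed the threshold (log2 fold change −0.44, SE 0.11), which it crossed with median-of-ratios scaling and without DMSO replicate 1. ARR2 (AT4G16110) summed to 20.4, 22.5 and 27.3 FPKM against 20.3, 19.3 and 18.6 FPKM (a log2 fold change of −0.25, 95% interval −0.56 to 0.06). Its copy Gh_Sca005214G02 (ARR2) had the most negative fold change of the family, −1.21 (SE 0.41, limma adjusted p = 0.147), from low values of 0.644, 1.46 and 1.02 FPKM against 0.605 FPKM in AZD replicate 3 and a listed 0 in AZD replicates 1 and 2. ARR11 (AT1G67710) had no tested copy, and the single copy of ARR10 (AT4G31920) was listed at 0 in all libraries.

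**Figure D4:**
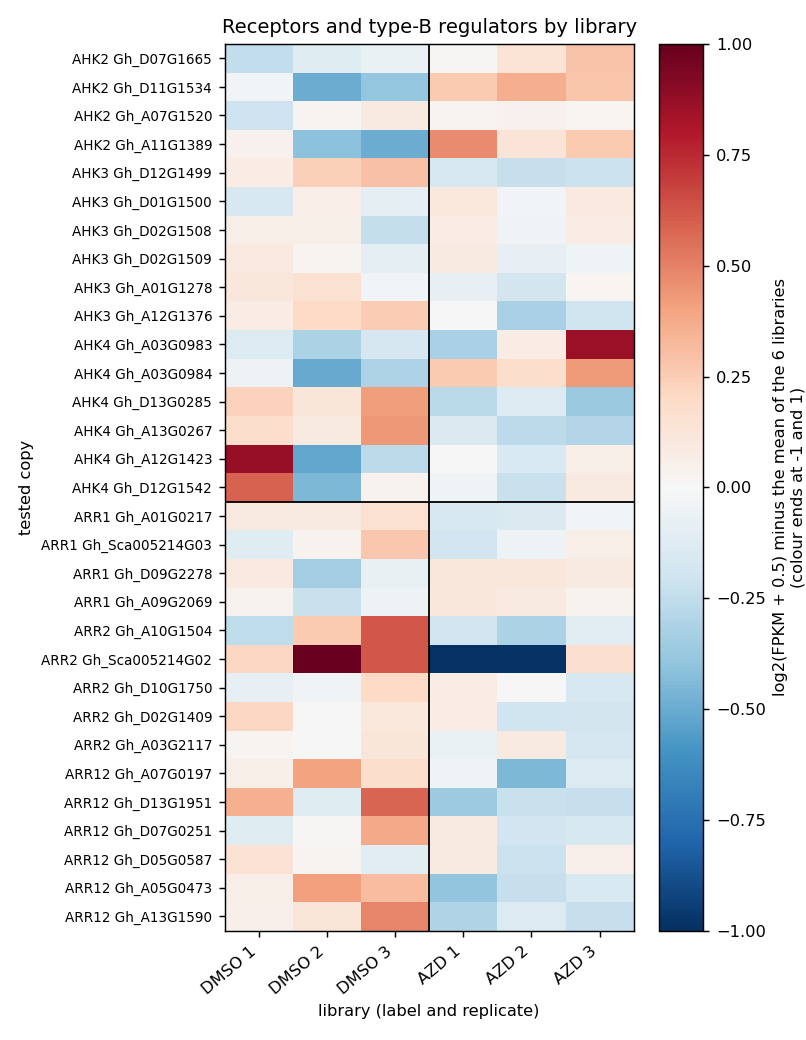
Log2(FPKM + 0.5) minus the mean over the 6 libraries (colour, ending at −1 and 1) of the 16 tested receptor copies and the 15 tested type-B ARR copies (rows) in each library (columns). Of the 4 AHK2 copies 3 are wholly higher on the AZD side and most ARR12 copies are lower there, AHK4 copies go both ways, and none of the 31 passed the test.

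Type-A ARRs are primary response genes that repress cytokinin signalling. Of 21 copies, 12 were tested and none passed. Of these, 8 had positive fold changes (median 0.13). All 12 overlapped between the groups, while 30.0% of all tested genes did not overlap. None had an unadjusted p under 0.05, against 23.4% of all tested genes. The median SE of the 12 copies on the log2 scale was 0.31, against 0.20 over all tested genes. Gh_A09G2398 (ARR6), the highest, gave 10.5, 6.64 and 6.32 FPKM in the DMSO libraries and 7.57, 8.45 and 7.38 FPKM in the AZD libraries, so that the values labelled AZD lay inside the DMSO range (log2 fold change 0.03, 95% interval −0.46 to 0.52). The largest positive and negative values were those of 2 copies of ARR9 (AT3G57040). Gh_D06G0412 (ARR9) gave 0.911, 0.468 and 0 FPKM against 1.42, 0.186 and 1.90 FPKM (a log2 fold change of 0.74, SE 0.59), and Gh_D10G1909 (ARR9) gave 3.28, 1.02 and 2.84 FPKM against 1.17, 0.926 and 1.70 FPKM (a log2 fold change of −0.63, SE 0.38). Both overlapped widely. ARR8 (AT2G41310) had 1 tested copy and ARR17 (AT3G56380) had 2, and their sums changed by −1.06 (95% interval −2.42 to 0.30) and 0.34 (95% interval −0.29 to 0.96) on the log2 scale.

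DMSO replicate 1 was the highest library for several type-A genes. The sum of ARR4 (AT1G10470) gave 10.8, 5.03 and 6.58 FPKM against 8.27, 7.77 and 7.81 FPKM (a log2 fold change of 0.15, 95% interval −0.45 to 0.75), and that of ARR6 (AT5G62920) gave 19.4, 12.4 and 12.8 FPKM against 13.7, 12.9 and 12.5 FPKM (a log2 fold change of −0.15, 95% interval −0.58 to 0.27). Over the whole family the sum was 51.4, 29.3 and 33.9 FPKM in the DMSO libraries and 39.1, 38.1 and 35.5 FPKM in the AZD libraries. The spread among the DMSO libraries thus exceeded the distance between the group means, 38.2 ± 11.7 and 37.6 ± 1.89 FPKM (SD, n = 3). These intervals leave room for a difference in either direction.

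Set side by side as family sums, without a test, IPT and CKX were the families that separated furthest in opposite directions. The IPT sum covers IPT3 and IPT5 alone. Left out of it are tested copies of higher mean, of IPT2 at 8.82 and 5.55 FPKM and of IPT9 at 3.05 and 4.43 FPKM. Their log2 fold changes were negative for IPT2 and positive for IPT9, and none passed. The fall below is thus not one of all IPT genes. IPT summed to 4.64, 4.92 and 5.80 FPKM in the DMSO libraries and 2.32, 2.1 and 2.59 FPKM in the AZD libraries, with means of 5.12 ± 0.606 and 2.33 ± 0.247 FPKM (SD, n = 3). CKX summed to 26.1, 26.8 and 21.9 FPKM against 40.2, 35.6 and 39.2 FPKM, with means of 24.9 ± 2.66 and 38.3 ± 2.41 FPKM (SD, n = 3). Neither pair overlapped. LOG (45.7, 51.4 and 45.7 FPKM against 63.0, 45.0 and 55.5 FPKM) and AHK (92.3, 87.8 and 90.3 FPKM against 87.6, 83.0 and 90.0 FPKM) overlapped, and type-B ARR did not (77.8, 76.8 and 88.8 FPKM against 72.6, 71.0 and 71.6 FPKM).

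A second list took 49 further loci of cytokinin synthesis, conjugation, transport and signalling. Of these, 27 had rows, with 123 copies, of which 50 copies of 17 loci were tested. None was higher and 4 were lower (8.00%), the median log2 fold change was −0.14, and in 16 (32.0%) the groups did not overlap, 3 above and 13 below. Over all tested genes 4.69% passed, 2.80% as lower, and 30.0% did not overlap, 14.5% above and 15.5% below. The list also held IPT2 and IPT9, with 2 tested copies each. Log2 fold changes were −0.52 and −0.14 for IPT2 and 0.17 and 0.52 for IPT9, and none passed. UGT73C5 is a glucosyltransferase that acts on cytokinins and on brassinosteroids. Its copy Gh_D08G1604 (UGT73C5) gave 12.4, 17.9 and 12.3 FPKM against 4.81, 2.48 and 4.15 FPKM (a log2 fold change of −1.79, SE 0.26, limma adjusted p = 0.0230). The other 2 tested UGT73C5 copies did not pass, at log2 fold changes of −0.52 and 0.09. KMD proteins are F-box proteins that target type-B ARRs for breakdown. Gh_D13G0852 (KMD2) gave 8.19, 12.8 and 7.27 FPKM against 3.51, 3.23 and 2.49 FPKM (a log2 fold change of −1.44, SE 0.23, limma adjusted p = 0.0288). Of the 5 tested KMD2 copies the other 4 did not pass, and 3 of the 5 had positive fold changes (median 0.08).

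CRF2 is an AP2-type factor that acts beside the type-B ARRs. Gh_A12G2112 (CRF2) gave 2.38, 3.30 and 2.24 FPKM against 0.942, 0.894 and 1.21 FPKM (a log2 fold change of −1.04, limma adjusted p = 0.0360), while the other 7 tested CRF2 copies did not pass. ABCG14 exports cytokinin from the root towards the shoot. Gh_A08G1350 (ABCG14) gave 2.49, 3.09 and 3.93 FPKM against 0.759, 1.58 and 0.719 FPKM (a log2 fold change of −1.30, limma adjusted p = 0.0486), and the other 3 tested ABCG14 copies had log2 fold changes of −0.67 to −0.49 without passing. The groups did not overlap in any of the 4 called copies. The ABCG14 copy had an adjusted p of 0.0552 without limma's trend and 0.0515 with quantile normalization, and with no filter on low values all 4 were over 0.08 and Gh_A13G0728 (KMD2) was the 1 further copy that passed, as lower, as it also did without the trend. Each of the 4 held without DMSO replicate 1, and of the other 5 libraries only DMSO replicate 2 could be left out, for KMD2 alone, with the call kept. NRT2.1, a root nitrate transporter on the root list, summed to 22.3, 3.90 and 14.9 FPKM against 0.176, 0.378 and 0.683 FPKM. PHO1, on the same list, summed to 1.94, 0.232 and 0.807 FPKM against 0.155, 0.388 and 0.283 FPKM, which overlapped. EXPA7 was at 0 to 0.173 FPKM in the DMSO and 0.449 to 1.06 FPKM in the AZD libraries, and the SCR, SHR and PIN2 sums overlapped. Over the 17 tested copies of the list the median log2 fold change was −0.09. The part of these in the ABCG14 and AHP4 values was not tested. Just outside the threshold, and named after its values were seen, Gh_A04G0981 (PUP1), a purine permease that can carry cytokinin, gave 3.77, 5.10 and 5.55 FPKM against 2.79, 2.15 and 2.51 FPKM (limma adjusted p = 0.0525), and it passed with a filter at a mean of 1 FPKM, with median-of-ratios scaling and without DMSO replicate 1.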

How the data were processed

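Seedlings gave 6 libraries of 100 bp paired-end reads, 3 labelled DMSO and 3 labelled AZD. The authors mapped the reads with TopHat2, ran Cufflinks and Cuffdiff, and deposited FPKM per gene and library. Which tool versions and which genome build they used is not given in the sources used here. On the library kit, the labels and the paper differ. The deposited FPKM hold no read counts per gene, so no counting interval is given. The read totals that the paper lists were not used here.

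From the deposited FPKM, limma 3.58.1 (R 4.3.3) with its trend was fitted, without a block, to log2(FPKM + 0.5) of the 43158 genes that averaged 0.5 FPKM or more. This scale understates changes of low genes. P-values are two-sided, with Benjamini-Hochberg adjustment over all tested genes and a threshold of 0.05. Sums per Arabidopsis locus were fitted likewise. An exact permutation test of 3 against 3 cannot go below p = 0.1. The fit was tested on simulated data. All 6 columns were used and 0 were left out. Python 3.11.15 with pandas 2.3.3 handled the tables.

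The genes and lists were chosen with earlier results of these data known. Named copies are those past the test, in each family those of highest mean and of largest positive and negative fold change, and non-overlapping ones with a log2 fold change of at least 1 in size. Of the further cytokinin genes and of the sums, those past the test are named. Other copies shown were chosen after their values were seen. Alternatives were other pseudocounts and filters, 2 other scalings, no trend, the ratio of group means, a replicate block and leaving out each library.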

Additional observations from a re-analysis of the deposited data

How the results depend on the processing

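Of 427 values recomputed for 29 results, 344 kept their direction and side of the threshold, 74 weakened, 4 strengthened and 5 changed sign. With limma and no filter on low values, 0 of the cytokinin copies (4 in the report), 1 of the further cytokinin genes (4), 1 sum (3, none of them shared) and 737 of all genes (2025) passed, with 30 cytokinin copies at an unadjusted p under 0.05. Whether the replicate numbers pair the libraries is not given in the sources used here. Deviations of same-numbered ones correlated at 0.02, −0.04 and −0.09, which cannot settle it with 3 pairs. With the replicate block the same 4 counts were 0, 0, 1 (the AHP4 sum) and 72, with 24 cytokinin copies at an unadjusted p under 0.05. Leaving out each library in turn gave 0 to 8 cytokinin copies, 0 to 5 further genes, 0 to 5 sums and 199 to 3590 of all genes. The highest of each came without DMSO replicate 1, and over the 6 fits 17 to 29 cytokinin copies had an unadjusted p under 0.05. Changes of sign touched Gh_D02G1508 (AHK3), which ranged from −0.024 to 0.13 over these fits and was below 0 without DMSO replicate 3, and Gh_A09G2398 (ARR6), which ranged from −0.10 to 0.25 and was below 0 without DMSO replicate 2 or 3 or AZD replicate 2, and at −0.0032 as a log2 ratio of group means. The causes were not tested. With 3 libraries a group, the smallest change called among the cytokinin copies was −1.20 on the log2 scale.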

Other observations

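The 2 subgenomes contributed unequally to several of these genes, and the order was the same in all 6 libraries. Copies on A and D chromosomes were summed apart, as a description without a test. AHP1 gave 54.7 to 79.9 FPKM from D copies and 5.25 to 9.15 FPKM from A copies. The receptor AHK3 gave 32.0 to 36.7 FPKM from D and 10.8 to 15.1 FPKM from A copies, and CKX5 gave 1.92 to 7.61 and 0.222 to 0.794 FPKM. ARR1 leaned the other way, at 21.9 to 23.5 FPKM from A and 7.24 to 10.2 FPKM from D copies. A further ARR1 copy on a scaffold, counted in neither, gave 3.52 to 5.05 FPKM. CKX7 gave 9.98, 13.6 and 10.9 FPKM from D copies in the libraries labelled DMSO and 23.5, 20.4 and 23.2 FPKM in those labelled AZD, while its A copies gave 6.80, 9.34 and 7.88 FPKM and 11.2, 10.3 and 11.1 FPKM. The number of copies differs between subgenomes, and reads of near-identical copies may be divided between them.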
